A study of Sus scrofa with 9 samples.

Results

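The antibody chain probes of a pig array were followed in whole blood of Clawn miniature pigs before and after oral azide. They were the array probes whose printed description names an immunoglobulin, or an Ig heavy, light, kappa, lambda, gamma, mu or alpha chain, leaving out descriptions with the words receptor, superfamily or binding. This rule found 96 of the 43603 non-control probes. By their descriptions 83 of them were for heavy chains or for rearranged VDJ segments, 11 were for light chains, and 2 were for other proteins with an immunoglobulin-like domain (T cell immunoglobulin mucin-3 and titin). Blood was taken before feeding (0 h), at 6 h and at 24 h, with 3 arrays at each time, from specific-pathogen-free males. The azide was given by mouth at 300 µg per kg, stated as 0.01 of the LD50, and its salt was not given in the sources used here. The age is 7 months in the series text and the sample characteristics, and 7 weeks in the free-text description of the samples. RNA was preserved in PAXgene tubes, which keep the RNA of all blood cells together, and was labelled with Cy3 on 1-colour Agilent arrays. The labels do not say whether the replicates were separate animals or whether the same animals were bled at each time, so p-values measure only the spread between these arrays. The arrays of each time lay on a slide and a scan of their own, so slide, scan and time cannot be told apart. No vehicle-fed group sampled at 6 h or 24 h was analysed here.

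An antibody is built of paired heavy and light chains. Developing B cells join variable, diversity and joining segments of the heavy chain locus, and variable and joining segments of the kappa or lambda locus, so that each B cell clone carries its own junctions. The heavy chain constant region sets the class: mu for IgM, delta for IgD, gamma for IgG, alpha for IgA and epsilon for IgE. In blood these transcripts come from B cells, which carry the chains in their surface receptor, and from plasmablasts, which secrete them. Pig heavy chains are known for drawing on few variable and diversity segments and mostly a single joining segment, so that different pig clones share long stretches of sequence.

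The 60-base probes themselves show this sharing. Among the 94 chain probes, 42 shared a run of at least 20 bases with another member, and all 42 were pig heavy chain or VDJ clones. The longest run that a probe matched to another species shared with any member was 11 bases. In the sequences that follow, capitals in heavy chain probes mark 10-base words that occur in at least 5 other pig heavy variable probes, and capitals in kappa probes mark words shared with another pig kappa probe. The first 3 are shown because their 3′ ends run through the joining segment. They come from the clones IgGF3, pvg5 and pvg7a.
A_72_P180671: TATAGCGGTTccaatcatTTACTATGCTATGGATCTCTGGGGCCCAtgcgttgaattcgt
A_72_P413908: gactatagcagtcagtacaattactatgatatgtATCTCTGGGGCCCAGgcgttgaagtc
A_72_P413893: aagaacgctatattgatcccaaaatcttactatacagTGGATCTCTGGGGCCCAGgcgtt

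The next 3 are shown because their means were higher after azide than before it. They come from a VDJ region, a heavy chain variable region and a VDJ clone labelled CD5-.
A_72_P153811: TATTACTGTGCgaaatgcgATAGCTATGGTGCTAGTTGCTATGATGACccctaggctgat
A_72_P186056: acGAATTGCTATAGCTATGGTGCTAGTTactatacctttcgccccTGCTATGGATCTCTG
A_72_P422639: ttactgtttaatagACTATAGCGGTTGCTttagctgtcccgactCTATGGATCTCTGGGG

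A further 2 had the widest spread between arrays of one time. They come from the clone IgMG1 and from a VDJ region, and a probe of the same kind that was well above background on no array is printed after them for comparison.
A_72_P180676: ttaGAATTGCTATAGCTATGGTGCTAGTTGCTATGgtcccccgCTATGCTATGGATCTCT
A_72_P413968: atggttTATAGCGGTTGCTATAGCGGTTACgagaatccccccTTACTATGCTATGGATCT
A_72_P174291: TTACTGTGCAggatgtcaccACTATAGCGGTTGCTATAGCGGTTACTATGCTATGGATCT

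The 3 pig kappa variable probes are shown because they were the most alike of the light chain probes.
A_72_P131446: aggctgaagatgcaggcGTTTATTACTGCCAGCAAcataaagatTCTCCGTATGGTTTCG
A_72_P131216: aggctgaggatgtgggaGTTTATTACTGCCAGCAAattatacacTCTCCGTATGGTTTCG
A_72_P257952: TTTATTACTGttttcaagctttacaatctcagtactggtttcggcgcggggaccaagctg

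The word ATGGATCTCT, which ends in the pig heavy joining segment, occurred in 43 of the 69 pig heavy variable probes (62.3%), against 0.122% of all probes on either strand. GGTGCTAGTT, a diversity segment word, occurred in 27 of the 69 (39.1%), against 0.0826% of all probes. AGCTATGGTG, which overlaps it at its last letters, occurred in 22 (31.9%). A match of this kind is a description of the letters and says nothing of which transcripts bound. The classes IgG and IgM of A_72_P180671 and A_72_P180676 come from the clone names. Their printed bases lie in the rearranged variable part and hold the same words as clones with no class named.

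Most of these probes gave no signal in whole blood. A probe was tested when it was well above background, by the scanner software's own flag, on all 3 arrays of at least 1 time. Of the 94 chain probes 24 were tested (25.5%), 62 were well above background on no array, and 8 were above it on 1 to 4 arrays without meeting the rule. Over the whole array 19783 of 43596 usable probes were tested. Neither of the 2 other proteins was above background on any array. Of the 69 pig heavy or VDJ variable clones 9 were tested and 54 had no array above background. Of the light chain probes 7 of 11 were tested. By class, 2 of 6 mu probes, 2 of 2 gamma, 1 of 2 delta, 0 of 1 alpha, 11 of 68 heavy chain probes of no stated class, 1 of 4 VDJ probes of no stated chain, 5 of 7 kappa and 2 of 3 lambda were tested, and there was no epsilon probe. The 1 light chain probe of no stated type was above background on 1 array.

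The detected clones included, among others, those that reach furthest into the joining segment, a description made after the values were known. The word CTCTGGGG of the joining segment was found in 26 of the 69 pig heavy variable probes, against 0.257% of all probes on either strand. In 3 of them, the first 3 printed, at least 18 bases lay between the start of that word and the probe's 3′ end (26, 24 and 18 bases). All 3 were well above background on all 9 arrays. In the other 23, where at most 15 bases did, 1 was tested. Of the 43 probes without the word 5 were tested, so signal was not limited to probes that hold it.

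No antibody chain probe passed the test in any comparison. Values are log2 signals relative to each array's 75th percentile, and the test was limma over all 19783 tested probes with Benjamini-Hochberg adjustment at 0.05. At 6 h 0 of the 24 tested members were called, against 0.0253% of all tested probes. At 24 h against 0 h, and at 24 h against 6 h, 0 of 24 were called, where 0% of all tested probes were. At an unadjusted p under 0.05 the counts were 8 of 24 at 6 h (5 higher, 3 lower; all tested probes 25.5%), 6 of 24 at 24 h (3 higher, 3 lower; all 13.9%) and 2 of 24 between 6 h and 24 h (all 21.6%). The arrays of the 2 times did not overlap for 8 of 24 members at 6 h (all tested probes 26.6%), for 7 at 24 h (all 26.5%) and for 2 between 6 h and 24 h (all 26.5%). The share at an unadjusted p under 0.05 at 24 h (25.0%) was above the background, and the other shares lay near it or, between 6 h and 24 h, below it. Members that met the filter on dim signal through their brighter time alone raise such shares, so they support nothing. The median difference of the members was -0.38 at 6 h (all tested probes 0.05) and -0.24 at 24 h (all -0.01). These medians moved when single arrays were left out, and only the median at 24 h changed sign. At 6 h the median became -0.09 when replicate 2 before azide was left out, -0.16 when replicate 3 was and -0.52 when replicate 1 was. Leaving out 6 h replicate 1 gave -0.22 and leaving out 6 h replicate 3 gave -0.21. At 24 h leaving out 0 h replicate 2 gave -0.07, leaving out 0 h replicate 3 gave -0.0041, and leaving out 24 h replicate 3 turned the sign, to 0.06. Single members ran from -1.92 to 1.66 at 6 h and from -1.12 to 1.44 at 24 h. In bulk blood, fewer B cells and less antibody RNA per cell cannot be told apart. By chain, at 6 h 9 of 17 tested heavy or VDJ probes had a higher mean than at 0 h (median 0.11), and 0 of 7 light chain probes did (median -0.70). Of all tested probes 52.6% did. At 24 h the counts were 8 of 17 (median -0.04) and 1 of 7 (median -0.55), against 49.1% of all tested probes. The difference between heavy and light chains was not tested, since members that share sequence are not replicates. With centring on the spike-in controls, which moved the median of all probes to 0.26 at 6 h and 0.98 at 24 h, the members' medians were -0.16 and 0.75.

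Among the pig heavy chain probes, 3 variable clones had higher means at both times after azide, and none passed the adjusted test. A_72_P153811, a VDJ probe of no stated chain, was at -3.10, -3.74 and -4.47 before azide, at -2.15, -2.78 and -1.42 at 6 h and at -2.25, -2.62 and -2.25 at 24 h. All 6 arrays after azide lay above all 3 before it, and the 6 h and 24 h arrays overlapped. Its difference was 1.66 at 6 h (SE 0.42; limma adjusted p = 0.081, n = 3) and 1.40 at 24 h (adjusted p = 0.243). It was well above background on no array before azide. Taken against the dimmest signal that counts as above background, its mean was at least 1.61-fold higher at 6 h, where 2 arrays measured it, and at least 1.34-fold higher at 24 h, where 3 did.

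A_72_P186056, a heavy chain variable probe, was at -3.54, -2.31 and -2.46 before azide, at -1.28, -1.60 and -1.48 at 6 h, and at -1.21, -1.35 and -1.95 at 24 h. It was above background on 1 array before azide and on all arrays after it, and the groups did not overlap at either time. The difference was 1.32 at 6 h (SE 0.36; limma adjusted p = 0.087) and 1.27 at 24 h (adjusted p = 0.240). A_72_P422639 was at -3.45, -4.43 and -4.20 before azide, at -4.06, -2.08 and -2.51 at 6 h and at -2.26, -2.89 and -2.60 at 24 h. The 6 h arrays overlapped those before azide through replicate 1, and the 24 h arrays lay above them all. It differed by 1.14 at 6 h (SE 0.48; adjusted p = 0.175) and by 1.44 at 24 h (adjusted p = 0.271), at least 1.17-fold at 24 h. A_72_P153811 and A_72_P186056 both hold the diversity segment word GGTGCTAGTT, which A_72_P422639 lacks, and the 3 probes were set together after their values were seen. All 3 passed the filter on dim signal only through the times after azide, where they were brighter, and so had to differ, and their count supports nothing. Without 6 h replicate 2 the difference of A_72_P153811 at 6 h was 1.99 and passed (limma adjusted p = 0.027). Without that array 2396 of all 19783 tested probes passed at 6 h, against 5 in the reported fit. With another background correction (normexp) the 3 probes differed by 0.06 to 0.28 at 6 h and by -0.23 to 0.07 at 24 h.

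The variable clones that reach through the joining segment varied more between the arrays of a time than between times. A_72_P180671, of the clone IgGF3, was at -1.60, 0.52 and 0.39 before azide, at -0.73, 0.26 and -0.44 at 6 h and at -0.76, 0.62 and -1.64 at 24 h. A_72_P413908, of the clone pvg5, was at -1.75, 0.50 and 0.41, then -0.52, 0.25 and -0.24, then -0.97, 0.59 and -1.55. A_72_P413893, of the clone pvg7a, was at -2.85, -0.41 and -0.69, then -1.66, -0.63 and -0.89, then -1.87, -0.25 and -2.48. In all 3 probes the lowest arrays were replicate 1 before azide and replicate 3 at 24 h, and the highest was replicate 2 at 24 h. The differences at 6 h were between -0.07 and 0.25, and at 24 h between -0.37 and -0.22, with SEs of 0.65 to 0.69. The 3 probes share the joining segment, so they are not separate measurements.

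The spread of the pig variable clones within a time was wide. Their pooled SD within times had a median of 1.00 over the 9 tested clones (range 0.46 to 1.68), and all 9 exceeded 0.44, the median of all tested probes. It was over 1 in 5 of the 9, against 3.99% of all tested probes. A_72_P413968, a VDJ probe, had the widest spread: it was at -1.57, 0.67 and 1.07 before azide, at 0.84, 0.67 and -1.01 at 6 h and at 0.61, 1.21 and -3.09 at 24 h. A_72_P180676, of the clone IgMG1, was at 0.07, 3.73 and 2.40, then 2.65, -0.01 and 2.43, then 2.33, 2.27 and 1.49. A_72_P413943, of the clone pvg18, was at -2.39, -0.10 and 0.54, then -2.73, -0.43 and -0.91, then -2.09, 0.29 and -1.58. Before azide replicate 1 was the lowest array in each of these 3 probes, while at 6 h the lowest array differed between them. At 24 h the lowest was replicate 3 in A_72_P413968 and A_72_P180676, and replicate 1 in A_72_P413943. Over the 9 arrays the Pearson correlation with A_72_P180671 was 0.84 for A_72_P413943, 0.81 for A_72_P413968 and 0.41 for A_72_P180676, so the clones did not all vary separately. The largest difference of A_72_P413968, A_72_P180676 and A_72_P413943 at any comparison was -0.71 (A_72_P413943 at 6 h, SE 0.86), below its SE.

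The pig constant region probes had pooled SDs of 0.58 (mu) and 0.75 (delta). A_72_P342498, for the mu constant region of IgM, was at 0.14, -0.55 and -0.47 before azide, at -0.43, -0.79 and -1.75 at 6 h and at 0.39, -0.08 and -0.88 at 24 h. The groups overlapped at each comparison, and the differences were -0.70 at 6 h (SE 0.43; limma adjusted p = 0.321) and 0.10 at 24 h (adjusted p = 0.940). A_72_P020716, for the delta constant region of IgD, a class carried on naive B cells, was at 4.01, 4.12 and 3.81, then 3.81, 4.38 and 2.54, then 3.94, 3.81 and 2.37. Its description lists a partial match to the pig sequence, at 7%. Replicate 3 was the low array at both 6 h and 24 h, and the other arrays lay between 3.81 and 4.38. Its differences were -0.41 at 6 h and -0.61 at 24 h (SE 0.51; adjusted p = 0.645 and 0.612).

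The kappa light chain probes had lower means after azide, and none passed the adjusted test. A_72_P131216 was at -1.28, -1.10 and -1.08 before azide, at -2.28, -1.59 and -1.71 at 6 h and at -1.65, -1.74 and -2.09 at 24 h. All 6 arrays after azide lay below all 3 before it. The difference was -0.70 at 6 h (SE 0.28; limma adjusted p = 0.158) and -0.67 at 24 h (adjusted p = 0.333). A_72_P131446, with which it shares a run of 18 bases, was at -2.13, -1.54 and -1.36 before azide, at -3.28, -1.87 and -2.84 at 6 h, and at -2.77, -2.04 and -3.59 at 24 h. Replicate 2 was the highest array at both later times and overlapped the range before azide. The differences were -0.99 at 6 h (SE 0.46; adjusted p = 0.210) and -1.12 at 24 h (adjusted p = 0.329).

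A_72_P257952, the other pig kappa probe, was at -0.48, 0.20 and 0.31 before azide, at -1.33, 0.25 and -0.55 at 6 h, and at -1.53, -0.15 and -1.53 at 24 h. Replicate 2 was again the highest array after azide. It differed by -0.56 at 6 h (SE 0.48; limma adjusted p = 0.485) and by -1.08 at 24 h (adjusted p = 0.357). Of the kappa probes matched to another species, A_72_P188446 (a partial match to human kappa, listed at 14%) was at 1.71, 1.00 and 1.18, then 0.99, 0.73 and -0.06, then 0.85, 0.73 and 0.66. Its arrays after azide lay below those before it at both times, and the differences were -0.74 and -0.55 (SE 0.33; adjusted p = 0.188 and 0.477). Over all 5 tested kappa probes 0 had a higher mean at 6 h and 0 at 24 h. Of the 3 pig probes 3 had unadjusted limma p under 0.05 at 24 h (all tested probes 13.9%). Of these 2 share the 18-base run, and A_72_P131446 was dim on some arrays, so this count supports nothing. At 6 h every fitted kappa mean was lower under each of the 21 alternative settings, and at 24 h under 20 of them. All 5 were fitted except under the filter to probes above background on all 9 arrays, which kept 4. The filters on dim probes, the trend and robust fit, the replicate block and the fit to compared arrays alone leave each difference unchanged. Leaving out an array of the time not compared also does so. Agreement under these settings was fixed in advance and adds nothing. With spike-in centring 3 of the 5 were higher at 24 h (median 0.32), below the median of all probes under that centring. A_72_P131216 was chosen after its values were seen.

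Of the 2 tested lambda light chain probes 0 had a higher mean at 6 h and 1 had one at 24 h. A_72_P306978, for the pig lambda chain, was at -0.03, 1.38 and 0.94 before azide, at 1.15, 0.16 and 0.39 at 6 h and at 1.48, 1.16 and -0.13 at 24 h. The groups overlapped, with differences of -0.20 and 0.07 (SE 0.49; limma adjusted p = 0.829 and 0.963). A_72_P066386, a partial match to echidna lambda, listed at 13%, was at 1.96, 2.22 and 1.78, then 1.70, 1.24 and 1.80, then 1.51, 1.67 and 1.42. Its 24 h arrays lay below those before azide, by -0.45 (SE 0.27; adjusted p = 0.474), and by 0.54 above them with spike-in centring.

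The descriptions of 18 chain probes name another species' antibody sequence as a partial match, listed at 5% to 34%, and of these 9 were tested. Their class is only that of the match, since the files name no pig gene for them. A_72_P317088, matched to a llama gamma chain, was at 4.84, 4.83 and 4.86 before azide, at 5.25, 5.72 and 6.27 at 6 h and at 4.35, 4.81 and 5.06 at 24 h. All 6 h arrays lay above all others of this probe, with differences of 0.90 at 6 h (SE 0.32; limma adjusted p = 0.130) and a mean 2.00-fold lower at 24 h than at 6 h (adjusted p = 0.133). With quantile normalisation the 2 differences of A_72_P317088 were 0.57 and -0.50, and with spike-in centring 1.12 and -0.23. A_72_P428479, matched to a ratfish heavy chain, was at -1.70, -3.37 and -2.34, then -4.71, -4.13 and -4.34, then -2.21, -2.90 and -0.95. Its 6 h arrays were all below the others and not above background. The difference was -1.92 at 6 h (SE 0.53; adjusted p = 0.086), at least 1.36-fold lower, and 2.37 from 6 h to 24 h (adjusted p = 0.112), at least 1.86-fold higher. Without 6 h replicate 2 the latter was 2.51 and passed (limma adjusted p = 0.045), where 1767 of all 19783 tested probes did, against 0 in the reported fit. With normexp the 2 differences of A_72_P428479 were -0.33 and 0.25. A_72_P428479 met the filter on dim signal only through times other than 6 h, where it was brighter, so its passing supports nothing.

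A_72_P209287, matched to a mouse heavy chain precursor, was at 5.87, 6.05 and 6.23 before azide, at 6.30, 6.29 and 6.66 at 6 h, and at 5.96, 6.41 and 6.25 at 24 h. It had the narrowest spread of the 24 (SD 0.21), and its 6 h arrays lay above those before azide by 0.37 (SE 0.26; limma adjusted p = 0.394), while under quantile normalisation the difference was -0.04. The spread of the 9 probes matched to other species had a median SD of 0.38, none over 1, whereas that of the 15 tested pig sequence probes had a median of 0.71.

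The rule left out the annotated pig IgG heavy chain gene LOC396781, whose probes are described as IgG without the word immunoglobulin. It has 8 probes, looked up after the members' values were known, and 7 were tested. The brightest, A_72_P152696, was at 5.30, 6.30 and 6.58 before azide, at 5.10, 6.25 and 5.17 at 6 h, and at 4.69, 5.57 and 3.91 at 24 h. The groups overlapped, and replicate 3 at 24 h was the lowest array, as in the joining segment clone A_72_P180671. At 6 h 3 of 7 probes had a higher mean than before azide (median -0.53). At 24 h 0 of 7 did (median -1.18, range -1.34 to -0.30), with the smallest limma adjusted p at 0.282. With spike-in centring 3 of 7 were higher at 24 h (median -0.19). At an unadjusted limma p under 0.05 there were 4 of 7 at 24 h (all tested probes 13.9%). There were 0 at 6 h (all 25.5%) and 0 between 6 h and 24 h (all 21.6%). The arrays of the 2 times overlapped for all 7 in each comparison, while 26.5% to 26.6% of all tested probes did not overlap. The 7 probes are for the same gene, so they are not separate measurements.

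Genes of the cells that make antibodies were counted from lists chosen with earlier results known. Of 30 B cell genes 7 had a probe and were tested, and 0 were called in any comparison. Their median difference was -0.13 at 6 h and -0.27 at 24 h. SYK and LYN, tyrosine kinases that act below the B cell receptor and also in myeloid cells, differed by 1.12 (SE 0.40; limma adjusted p = 0.131) and 1.31 (SE 0.34; adjusted p = 0.081) at 6 h. SYK was at 5.13, 5.96 and 5.62 before azide and at 6.57, 5.94 and 7.57 at 6 h, where replicate 2 overlapped. LYN was at 5.65, 5.62 and 5.61 before azide and at 6.61, 6.64 and 7.56 at 6 h, all above.

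Of 24 plasma cell and antibody secretion genes 6 were tested and 0 called. Their median difference was 0.50 at 6 h, where 3 were higher and 3 lower, and 0.10 at 24 h. PRDM1, the transcription factor that drives plasma cell differentiation and is also made in T cells and myeloid cells, was at -0.55, -0.76 and 0.02 before azide, at 1.11, 1.59 and 2.67 at 6 h, and at -0.06, 0.62 and 0.66 at 24 h. It differed by 2.22 at 6 h (SE 0.42; limma adjusted p = 0.060), with all 3 arrays above those before azide. TNFSF13B (BAFF), a B cell survival factor secreted by myeloid cells, was at -1.16, -0.72 and -0.92 before azide and at 0.92, 0.19 and 2.31 at 6 h, a difference of 2.07 (SE 0.51; adjusted p = 0.080). TNFSF13 (APRIL), its relative, differed by 0.99 (SE 0.40; adjusted p = 0.158). In all 3 genes replicate 3 was the highest array at 6 h. Without 6 h replicate 2 SYK, LYN, PRDM1 and TNFSF13B passed at 6 h, where 2396 of all 19783 tested probes did, against 5 in the reported fit. The 3 lower genes of this list at 6 h were SPCS1 (-0.45, SE 0.30), HSP90B1 (-0.18, SE 0.40) and HSPA5 (-0.0028). HSPA5, a chaperone of the antibody-folding endoplasmic reticulum, differed at 6 h by less than its SE of 0.32. Of 10 antibody receptor and transport genes 4 were tested, with a median difference of 0.79 at 6 h and 0 called. FCGR3A, an IgG receptor of NK cells and myeloid cells, was at 7.75, 7.84 and 7.70 before azide, at 8.30, 8.43 and 8.73 at 6 h, and at 7.14, 7.19 and 7.71 at 24 h, and differed by 0.72 at 6 h (SE 0.27; adjusted p = 0.140).

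Mean levels of gene lists for other blood cells, and of the B cell list, were taken on each array. The mean level of 7 monocyte genes was 3.38 to 3.79 before azide, 4.88 to 6.83 at 6 h and 3.77 to 5.06 at 24 h, and that of 4 neutrophil genes was 3.79 to 4.54, 5.39 to 7.52 and 4.36 to 4.91. The mean level of 9 T cell genes was 2.28 to 2.68, 1.02 to 2.13 and 2.24 to 2.32, and that of the 7 B cell genes was 3.13 to 3.28, 3.25 to 3.42 and 2.92 to 3.27. Without SYK and LYN, left out after seeing the data, the other 5 B cell genes were at 2.06 to 2.44 before azide, at 1.76 to 2.09 at 6 h and at 1.75 to 2.15 at 24 h, with median differences of -0.28 and -0.34 and 1 of 5 higher at each time. Replicate 3 at 24 h, the lowest array for 6 of the 15 tested pig members, had 56.6% of its spots well above background, against 39.9% to 49.5% on the other 8 arrays. Their part in the differences of the antibody chain probes was not tested.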

How the data were processed

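The arrays were 1-colour Agilent pig arrays with 60-base probes, 1 per sample, 9 in all. The authors scanned and extracted them with Agilent Feature Extraction (version 10.5.1.1 per the file headers, 9.5.3.1 per the submitters' processing notes) and deposited each spot's intensity after background subtraction and the software's own processing. A deposited series-wide table of linear intensity values, with column medians of 11.4 on each array and the same maximum in all, was used as an alternative. Its scale is linear and its genes are not centred.

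Spots flagged as outliers were left out, which removed 7 of 43603 probes. The intensities were taken as log2 minus each array's 75th percentile, and spots of one probe were averaged. The 19783 probes that at least 1 time showed above background in each of its 3 arrays were fitted with limma 3.58.1 in R 4.3.3, with the times as groups, over all 9 arrays. The threshold was 0.05 after Benjamini-Hochberg adjustment over all tested probes. The number of arrays limits the precision, and no spot was saturated (0 on each array). The fit was tested on simulated data. Lower bounds of fold differences used, for the dim time, each array's lowest signal that the software still called well above background, or the probe's own signal where it was higher.

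The members and gene lists were chosen with earlier results of these data known. Of each chain class the tested probe with the highest mean and that with the largest difference at each comparison were named, and of the B cell and plasma cell lists the genes with unadjusted p under 0.05. A_72_P131216, A_72_P186056, A_72_P413893, A_72_P413908, A_72_P413943, A_72_P413968, SPCS1, HSP90B1, HSPA5, FCGR3A and the IgG gene were chosen after their values were seen. Positions in the genome were not analysed here. Some genes of the lists are not reported here.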

Additional observations from a re-analysis of the deposited data

How the results depend on the processing

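Alternatives were quantile normalisation, median centring, a 75th percentile over bright probes, spike-in centring, normexp, the deposited table, other filters on dim probes, other fits and leaving out each array. Counts over all probes at 6 h, 5 in the reported fit, were 8 with quantile normalisation, 8 with the deposited table, 367 with spike-in centring, 9889 with array weights, 620 with the replicate block, and 0 with the 75th percentile over bright probes, normexp, the filter to probes above background on all 9 arrays, no filter, the trend and robust fit and the fit to the compared arrays alone. They ran from 0 to 2396 when 1 array was left out, the highest without 6 h replicate 2, and were 25 without 24 h replicate 3. At 24 h, 0 in the reported fit, they were 6 with quantile normalisation, 6 with the deposited table, 5355 with spike-in centring and 5445 with array weights. Between 6 h and 24 h they were 5769 with array weights and 0 to 1767 when 1 array was left out.

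Of the 24 tested antibody chain probes, spike-in centring called 1 at 6 h and 4 at 24 h, with A_72_P186056 at both times. Of all 19783 tested probes it called 367 and 5355. Array weights called 11, 7 and 5 of the 24 in the 3 comparisons, and 9889, 5445 and 5769 of all tested probes. Calls under these settings were thus not particular to the antibody chain probes. When 1 array was left out, 0 to 1 antibody chain probes were called at 6 h and 0 to 1 between 6 h and 24 h. The median of the antibody chain probes with spike-in centring was 0.75 at 24 h and 0.73 between 6 h and 24 h. Over the 15 tested pig sequence probes alone, an alternative chosen after seeing the data, 0 were called and the medians were -0.20 at 6 h and -0.36 at 24 h. The cause of these shifts was not tested. Of 1182 single values under the alternatives 93 changed sign, none of them called. Settings that leave the differences unchanged could not add to the sign changes.

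Whether equal replicate numbers mark the same animal is not stated, and the values could not decide it. Correlations of same-numbered deviations ran from -0.20 to 0.64 and not all were over 0.1. The replicate block raised the count at 6 h to 620, among them PRDM1 and TNFSF13B, and called 0 antibody chain probes. Dim signal limits what can be seen, since 62 of the 94 chain probes were above background on no array.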
